A study of Homo sapiens with 4 samples.

Results

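The genes described are the 10 negative feedback genes and transcriptional outputs of the ERK pathway *DUSP4*, *DUSP5*, *DUSP6*, *SPRY2*, *SPRY4*, *SPRED1*, *SPRED2*, *ETV4*, *ETV5* and *PHLDA1*. They were chosen by gene symbol, and each matched 1 row of the 63651 rows in the table. The cells are BJ-5ta, human foreskin fibroblasts immortalised with telomerase, in a clonal line carrying a FOXA2 transgene that doxycycline switches on. The labels give 2 induced samples, treated with 0.5 µg/ml doxycycline, and 2 uninduced samples without it. All were grown in 10% fetal bovine serum with hygromycin B at 0.01 mg/ml, puromycin at 0.5 µg/ml and basic fibroblast growth factor (bFGF) at 5 ng/ml. bFGF binds receptors that activate ERK, so both groups were cultured with an ERK-activating ligand. The labels also describe an overnight arrest with 200 µM mimosine without saying which cultures received it, and do not state how long the cells were induced; the name of the induced column contains 4D, which they do not explain. No culture that received doxycycline without the transgene was used here, so the effect of FOXA2 and that of the drug cannot be told apart.

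RNA was measured by sequencing, and the table used here holds 1 value for each gene and group. The value is the FPKM (fragments per kilobase of transcript and per set number of mapped fragments), which is scaled to transcript length and can be compared between genes. Each value has a lower and an upper confidence bound set by the authors, whose level is not stated. There is no value per sample, so no difference below has a replicate check, and no SD or p-value is given. FOXA2 itself was at 104 FPKM (interval 50.2 to 158) in induced cells, against 4.82 FPKM (0.526 to 9.12) in uninduced cells, and its intervals did not overlap. All 10 fibroblast markers examined were at 1 FPKM or more, with summed levels of 3206 FPKM induced and 4982 FPKM uninduced. By value 4 of them were higher and 6 lower in induced cells, with overlapping intervals. The highest, *VIM*, was at 905 FPKM induced and 2098 FPKM uninduced and weighs most in the sums. Of the markers of other cell types, 1 of 6 for keratinocytes, 1 of 4 for melanocytes, 0 of 4 for endothelium and 2 of 5 for immune cells reached 1 FPKM, and the highest was the keratin *KRT10*, at 10.6 FPKM induced and 16.1 FPKM uninduced. The melanocyte marker *PMEL* and the immune markers *PTPRC* and *CD14* reached 1 FPKM only in the induced column, with overlapping intervals. They were at 1.46, 1.30 and 2.15 FPKM induced, against 0.753, 0.547 and 0.823 FPKM uninduced. The keratinocyte markers *KRT5* and *KRT1*, the endothelial markers *PECAM1*, *CDH5* and *KDR*, and the T cell marker *CD3E* were listed at 0 in both columns. The row used for *PECAM1* lies on a patch sequence and not on a chromosome. Whether reads were aligned to that sequence is not stated, so this 0 does not show that *PECAM1* RNA was absent. In such bulk RNA, fewer cells that express a gene and less RNA per cell cannot be told apart.

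Growth factor receptors signal through RAS, RAF and MEK to the ERK kinases, which enter the nucleus and turn on a rapid set of target genes. Several of those targets encode brakes on the same pathway. The DUSP phosphatases remove the activating phosphates from ERK and related kinases, and Sprouty and SPRED proteins dampen signalling at the level of RAS and RAF. In many cell types the RNA of these genes, together with the ETS factors *ETV4* and *ETV5*, follows ERK activity, and it is used as a transcriptional readout of the pathway.

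The promoters of the 3 members with the highest mean level that have an entry in the RefSeq promoter table are shown to give the sequence context of the readout. Each window runs from 250 bases before to 50 bases after the most upstream listed start, in build GRCh38.p14. All 3 lie on the minus strand and are written 5′ to 3′ along the gene, with *DUSP6* at chr12:89352452-89352751, *SPRY2* at chr13:80341077-80341376 and *PHLDA1* at chr12:76031727-76032026. Capitals mark matches to the ETS core letters CCGGAA on either strand.
DUSP6: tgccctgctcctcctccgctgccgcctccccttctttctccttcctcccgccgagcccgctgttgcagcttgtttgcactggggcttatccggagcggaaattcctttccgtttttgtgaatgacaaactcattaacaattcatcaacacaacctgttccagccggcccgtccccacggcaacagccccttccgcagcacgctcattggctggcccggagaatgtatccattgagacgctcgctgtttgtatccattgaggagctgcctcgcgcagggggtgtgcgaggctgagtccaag
SPRY2: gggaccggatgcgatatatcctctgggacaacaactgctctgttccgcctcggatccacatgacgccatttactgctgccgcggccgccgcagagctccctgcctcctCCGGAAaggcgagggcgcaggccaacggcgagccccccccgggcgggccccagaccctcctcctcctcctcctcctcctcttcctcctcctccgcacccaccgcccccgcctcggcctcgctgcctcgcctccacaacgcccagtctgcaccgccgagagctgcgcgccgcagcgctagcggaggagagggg
PHLDA1: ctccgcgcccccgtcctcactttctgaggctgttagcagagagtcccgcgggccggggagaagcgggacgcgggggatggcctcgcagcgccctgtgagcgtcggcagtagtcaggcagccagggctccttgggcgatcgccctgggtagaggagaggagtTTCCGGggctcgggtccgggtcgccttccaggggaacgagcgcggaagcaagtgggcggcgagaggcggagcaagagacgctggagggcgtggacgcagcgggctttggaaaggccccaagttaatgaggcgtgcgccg

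The *SPRY2* window held the ETS letters 142 bases before the start, the *PHLDA1* window held them 89 bases before the start on the opposite strand, and the *DUSP6* window held none. Of the 10 members, 6 had windows that were searched (*SPRY4*, *SPRED1* and *SPRED2* besides these). They gave 9 windows in all because *SPRY2* and *SPRED2* have further listed starts. Member windows on chromosome 8, where *DUSP4* lies, were left out of the search, while the shares over all windows include that chromosome. CCGGAA matched 2 of these 9 windows, against 17.2% of all 35116 windows in the table, which likewise count every listed start. The second ETS form searched, GGAAGT, matched 1 of 9, in a further *SPRY2* window, against 22.8% of all windows. The forkhead letters TGTTTAC and TATTTAC matched 0 of 9 each, against 3.42% and 2.67% of all windows. The AP-1 letters TGAGTCA and the TATA letters TATAAA matched 1 of 9 each, both in the further *SPRED2* window, against 4.95% and 11.5% of all. The CRE letters TGACGT matched 1 of 9, in the first *SPRED2* window, against 7.98% of all. The GC box GGGCGG was found in 6 of 9 windows, against 45.0% of all, and the *DUSP6* window was without it. These are letter matches in short windows, searched on both strands, and say nothing of what binds there.

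Induced cells were compared with uninduced cells to see how FOXA2 induction bears on RNA levels. None of the 10 ERK feedback genes passed the criterion for a change, which was that the deposited intervals in the 2 columns do not overlap. All 10 were expressed in both columns, at 12.8 to 62.6 FPKM (median 30.9) induced and 19.0 to 108 FPKM (median 29.7) uninduced. Of the 14319 genes kept at 1 FPKM or more in either column, 1.18% passed the criterion, 0.726% as higher and 0.454% as lower, so a count of 0 among 10 is near the background. All 10 members were among the kept genes. Under a looser rule, a difference whose own interval leaves out 0, again 0 of 10 members passed, against 2.37% of kept genes.

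The differences were split evenly in direction. On the log2(FPKM + 1) scale, induced minus uninduced, 5 members lay above 0 and 5 below. Their median difference was -0.04, against 0.05 for all kept genes and -0.06 for the 5366 kept genes in the same range of mean level (16.7 to 85.4 FPKM). No member differed by 2-fold or more, a size reached by 15.2% of kept genes (9.2% higher and 6.03% lower) and by 11.9% of those in the same level range. The 2-fold genes were split into 1317 higher and 863 lower, and into 1728 and 613 with both columns scaled to the same sum or 952 and 1019 after quantile normalization. The member farthest from 0 was *PHLDA1* at -0.78, and 76.5% of all kept genes lay no farther from 0 than that.

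**Figure D1:**
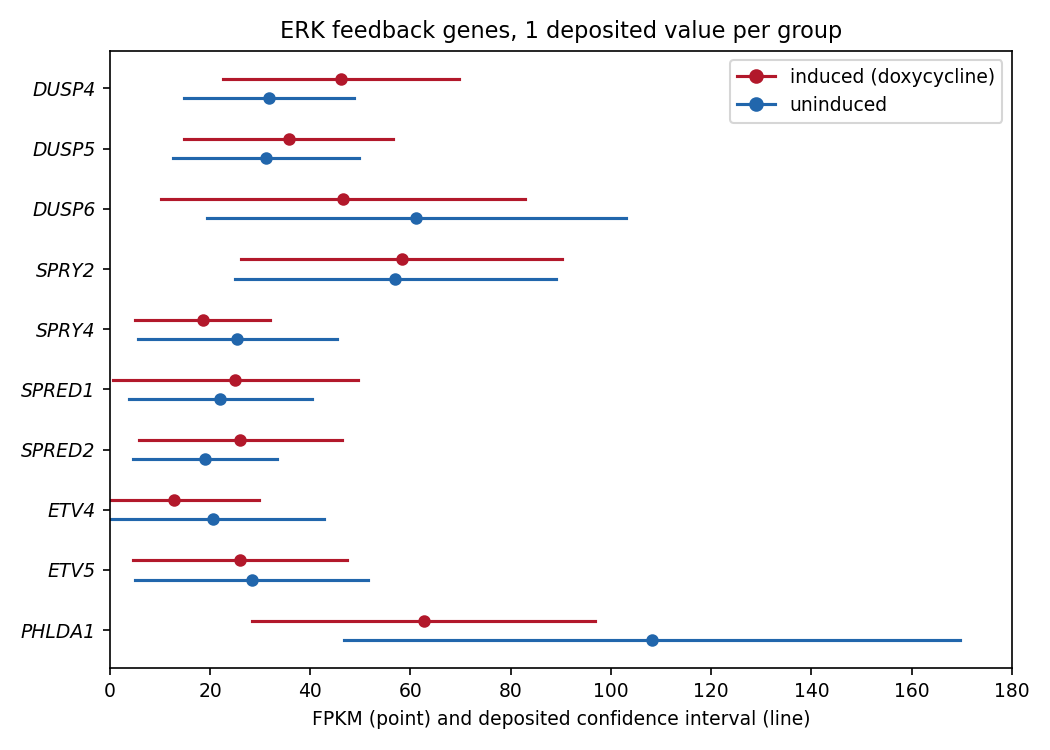
Deposited FPKM (horizontal axis) of the 10 ERK feedback genes in induced cells (red) and uninduced cells (blue), with the deposited confidence interval as a line. The intervals of the 2 columns overlap for every gene, and only the uninduced *PHLDA1* value, 108 FPKM, lies outside the interval of the other column.

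The MAP kinase phosphatases are the most direct brakes, since they dephosphorylate the kinases themselves. *DUSP6* (ENSG00000139318; chromosome 12, 89741009 to 89747048, hg19), a cytoplasmic phosphatase selective for ERK, was at 46.5 FPKM (interval 10.2 to 82.8) in induced cells, against 61.1 FPKM (19.3 to 103) in uninduced cells. *DUSP4* (ENSG00000120875; chromosome 8, 29190581 to 29208185), a nuclear phosphatase of ERK and other MAP kinases, was at 46.1 FPKM (22.5 to 69.6) induced, against 31.8 FPKM (14.9 to 48.8) uninduced. *DUSP5* (ENSG00000138166; chromosome 10, 112257596 to 112271302), a nuclear phosphatase selective for ERK, was at 35.7 FPKM (14.9 to 56.6) induced, against 31.2 FPKM (12.6 to 49.8) uninduced. In induced cells the value was thus lower for *DUSP6* and higher for *DUSP4* and *DUSP5*, with overlapping intervals in each case. The ratios of induced to uninduced FPKM were 0.760 for *DUSP6*, 1.45 for *DUSP4* and 1.15 for *DUSP5*. Summed over the 3 phosphatases, the level was 128 FPKM induced and 124 FPKM uninduced.

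Sprouty and SPRED proteins share a cysteine-rich C-terminal domain and act upstream of ERK. *SPRY2* (ENSG00000136158; chromosome 13, 80910111 to 80915086) was at 58.2 FPKM (26.2 to 90.2) in induced cells, against 56.9 FPKM (24.9 to 89.0) in uninduced cells. Its log2 difference of 0.03 was the smallest in size of the 10, and its interval of the difference ran from -44.0 to 46.5 FPKM. *SPRY4* (ENSG00000187678; chromosome 5, 141689992 to 142077617), its paralog, was at 18.5 FPKM (5.06 to 31.99) induced, against 25.4 FPKM (5.54 to 45.3) uninduced, a ratio of 0.728. The 2 Sprouty genes thus lay on different sides of 0 by less than their intervals.

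SPRED proteins bring neurofibromin, which switches RAS off, to the membrane. *SPRED1* (ENSG00000166068; chromosome 15, 38544527 to 38649450), in which loss-of-function variants cause Legius syndrome, was at 25.02 FPKM (0.574 to 49.5) in induced cells, against 22.1 FPKM (3.87 to 40.3) in uninduced cells. *SPRED2* (ENSG00000198369; chromosome 2, 65537985 to 65659771) was at 26.0 FPKM (5.75 to 46.3) induced, against 19.0 FPKM (4.64 to 33.3) uninduced, a ratio of 1.37. Both SPRED values were higher in induced cells, with overlapping intervals. Over the 4 Sprouty and SPRED genes the summed level was 128 FPKM induced and 123 FPKM uninduced.

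*ETV4* and *ETV5* encode ETS transcription factors of the PEA3 group, which act as nuclear effectors of FGF signalling in development. *ETV4* (ENSG00000175832; chromosome 17, 41561233 to 41687706) was at 12.8 FPKM (0 to 29.7) in induced cells, against 20.6 FPKM (0 to 42.8) in uninduced cells, and was the least precise member, with a lower bound of 0 in both columns. *ETV5* (ENSG00000244405; chromosome 3, 185764097 to 186080026) was at 26.0 FPKM (4.58 to 47.3) induced, against 28.3 FPKM (5.11 to 51.5) uninduced. Both lay below 0, at -0.65 and -0.12 on the log2 scale, within their intervals. The sign of *ETV5* turned to 0.07 with both columns scaled to the same sum.

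*PHLDA1* (ENSG00000139289; chromosome 12, 76419227 to 76427712) encodes a pleckstrin homology-like protein whose RNA is induced by growth factors. It was at 62.6 FPKM (28.4 to 96.9) in induced cells, against 108 FPKM (46.8 to 170) in uninduced cells, a ratio of 0.579. It was the one member whose uninduced value lay outside the induced interval, although the intervals still shared the range from 46.8 to 96.9 FPKM. The interval of its difference ran from -116 to 24.8 FPKM. A clone-named gene with the same locus span in the table, *RP11-290L1.3*, was at 71.7 FPKM (0 to 206) induced, against 120 FPKM (0 to 355) uninduced. The libraries do not keep strand, so reads of overlapping genes cannot be told apart, and the part of this gene in the *PHLDA1* value was not tested.

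**Figure D2:**
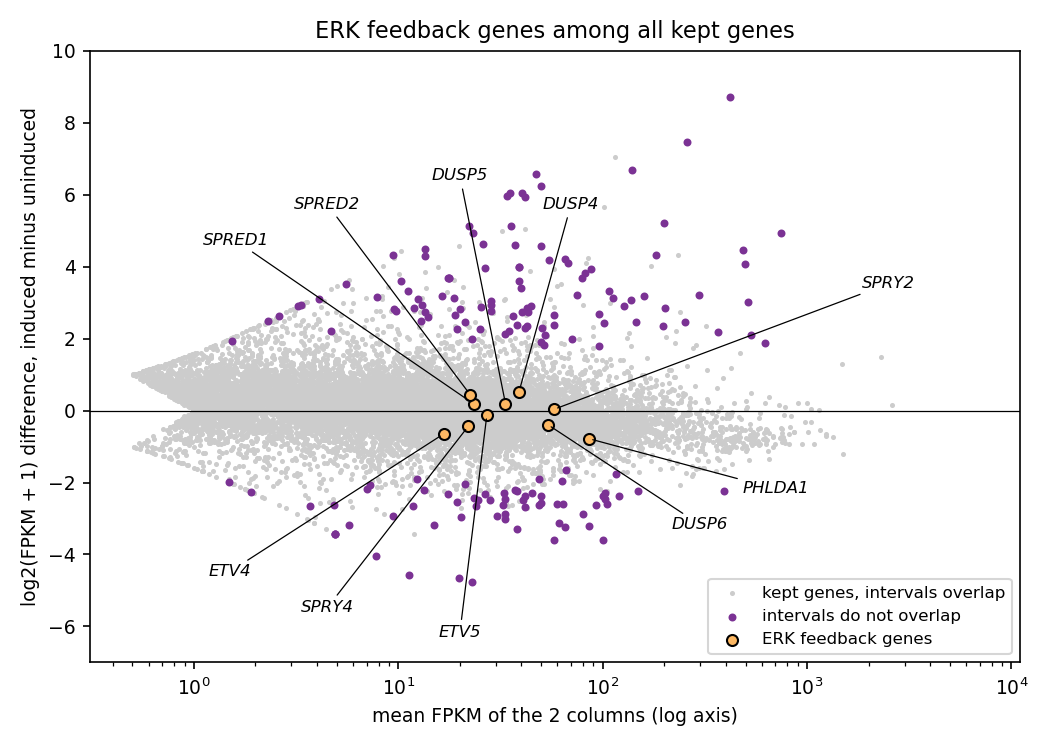
Difference on the log2(FPKM + 1) scale, induced minus uninduced (vertical axis), against the mean FPKM of the 2 columns (horizontal log axis) for the 14319 kept genes. The ERK feedback genes (orange) lie between -0.78 and 0.52 inside the cloud of genes whose intervals overlap (grey), away from those whose intervals do not (purple), and 1 kept gene lies outside the plotted range.

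The order of the levels was similar in both columns by value, and mostly unresolved by interval. *PHLDA1* was the highest member in both columns. It was followed in induced cells by *SPRY2*, *DUSP6*, *DUSP4*, *DUSP5*, *SPRED2*, *ETV5*, *SPRED1*, *SPRY4* and *ETV4*. In uninduced cells the order below it was *DUSP6*, *SPRY2*, *DUSP4*, *DUSP5*, *ETV5*, *SPRY4*, *SPRED1*, *ETV4* and *SPRED2*. The highest and the lowest value differed 4.91-fold induced and 5.71-fold uninduced. Of the 45 pairs of members, 0 had intervals that lay apart in the induced column and 4 in the uninduced column. Those 4 were *PHLDA1* against *SPRY4*, *SPRED1*, *ETV4* and *SPRED2*, so no neighbours in either order differed beyond their intervals.

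The width of the intervals sets what could have been seen. In induced cells the upper bound lay between 51.1% (*DUSP4*) and 133% (*ETV4*) above the FPKM. The median was 99.97% over all kept genes and 80.7% over those in the level range of the members. With the relative width of each induced interval held fixed, *DUSP4* would have needed a ratio of at least 3.14 to pass as higher or a 3.24-fold lower value to pass as lower. The corresponding sizes were 3.47-fold and 3.54-fold for *SPRY2*, 3.46-fold and 3.58-fold for *PHLDA1*, and 3.84-fold and 3.93-fold for *DUSP5*. The next group was less precise: *SPRY4* would have needed a 6.52-fold higher or a 7.93-fold lower value, *SPRED2* 7.95-fold or 7.28-fold, and *ETV5* 10.3-fold or 10.1-fold. *DUSP6* would have needed a 7.70-fold higher or a 5.63-fold lower value, and *SPRED1* a 79.6-fold higher or an 11.3-fold lower one. For *ETV4* no ratio in either direction could have passed. A 2-fold difference could therefore not pass this criterion for any of the 10 genes, and their overlap does not show that the levels stayed the same.

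**Figure D3:**
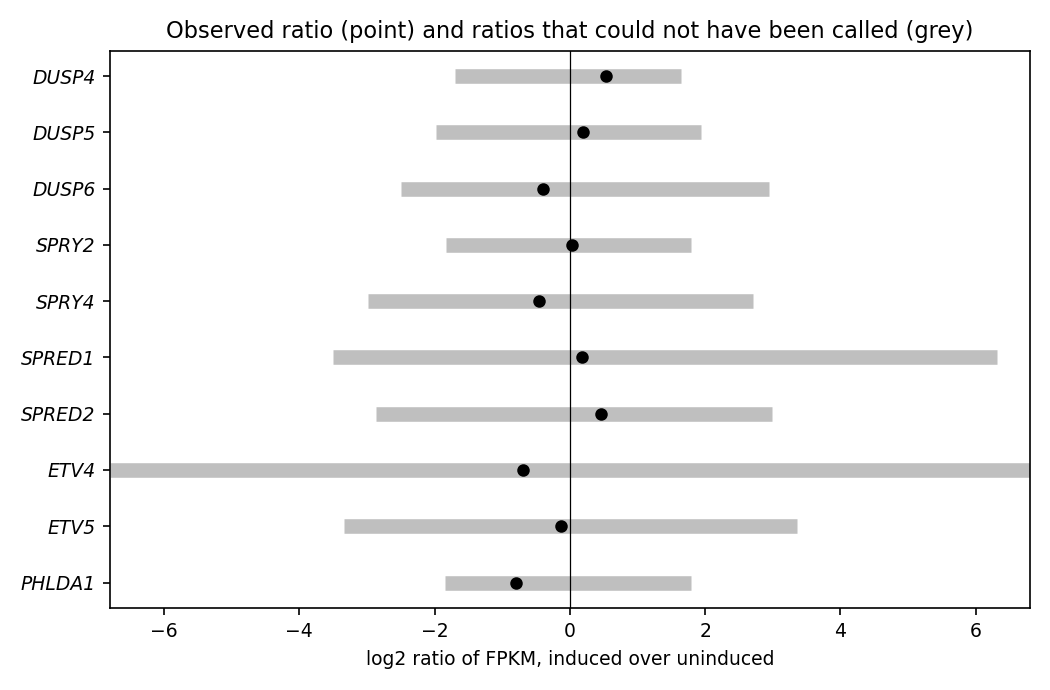
Observed log2 ratio of induced over uninduced FPKM (black points) for each ERK feedback gene, with the range of ratios in which the deposited intervals would still overlap, given the relative width of the induced interval (grey bars). Every point lies inside its bar, the bars are narrowest for *DUSP4*, *SPRY2*, *PHLDA1* and *DUSP5*, and the *ETV4* bar has no end in either direction.

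Some loci in the table span more than 1 gene. The span given for *SPRY4*, 388 kb, is the same as that of *FGF1*, which encodes a ligand of all FGF receptors. *FGF1* was at 1.19 FPKM (0 to 6.59) in induced cells, against 22.6 FPKM (0 to 52.5) in uninduced cells, the largest difference in the ligand list at -3.43 on the log2 scale, with overlapping intervals. The *ETV4* span is shared with the RNA helicase gene *DHX8*, at 25.6 FPKM induced and 23.1 FPKM uninduced. The *ETV5* span is shared with its antisense transcript *ETV5-AS1*, at 0.191 FPKM induced and 0.195 FPKM uninduced, and with *DGKG*, at 0.807 FPKM induced and 0.841 FPKM uninduced. The spans of *FGF5*, *FGF2*, *FGFR1*, *PDGFRA*, *SHC1*, *CCND1*, *LIF*, *LRIG1*, *ELK3* and *JUNB*, described below, are likewise shared with other kept genes.

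The rest of the pathway gave 2 calls among 82 kept genes of 102 listed, both in the list of other ERK outputs, or 2.44% against the 1.18% of all kept genes. *LIF*, a cytokine of the interleukin-6 family, rose to 23.2 FPKM (4.01 to 42.4) in induced cells, against 1.79 FPKM (0 to 3.87) in uninduced cells. *VGF*, a neuropeptide precursor first described as a growth factor-induced gene, fell to 0.346 FPKM (0 to 0.890) in induced cells, against 11.2 FPKM (1.14 to 21.2) in uninduced cells. The list of 12 outputs, all kept, had a median of -0.14, with 2 genes at least 2-fold higher and 3 at least 2-fold lower. Its highest members by the mean of both columns were *CCND1*, which encodes cyclin D1, at 200 FPKM induced and 221 FPKM uninduced, and *EMP1*, at 117 FPKM induced and 161 FPKM uninduced. *PLAUR*, the urokinase receptor, was at 30.4 FPKM (6.37 to 54.5) induced, against 107 FPKM (45.1 to 169) uninduced, and passed as lower only by the looser rule. *FOSL1*, the AP-1 subunit FRA1, was at 78.5 FPKM (33.0 to 124) induced, against 187 FPKM (87.0 to 286) uninduced, and *EPHA2*, a receptor tyrosine kinase, at 55.0 FPKM induced and 54.0 FPKM uninduced.

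Above the feedback genes, 0 of 12 kept ligands (of 22 listed), 0 of 8 kept receptors (of 13) and 0 of 22 cascade members passed in either direction. Their median differences were -0.17, -0.01 and 0.06 on the log2 scale. Among the ligands *FGF5* was at 96.0 FPKM induced and 155 FPKM uninduced, and *EREG*, which encodes the EGF receptor ligand epiregulin, at 92.2 FPKM induced and 102 FPKM uninduced. *FGF2*, the gene of the bFGF that the medium supplied, was at 34.4 FPKM (15.4 to 53.3) induced, against 39.1 FPKM (17.7 to 60.4) uninduced. *HGF*, the ligand of MET, was at 150 FPKM (25.2 to 275) induced, against 29.4 FPKM (5.15 to 53.7) uninduced, with overlapping intervals. The highest receptors by the mean of both columns were *FGFR1*, at 108 FPKM induced and 90.8 FPKM uninduced, and *PDGFRA*, at 62.5 FPKM induced and 59.0 FPKM uninduced. In the cascade the adaptor gene *SHC1* was at 192 FPKM induced and 200 FPKM uninduced, and *MAP2K2*, which encodes MEK2, at 73.7 FPKM induced and 95.0 FPKM uninduced. *MAPK3*, which encodes ERK1, was at 61.3 FPKM induced and 62.3 FPKM uninduced.

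The relatives of the feedback genes had wider differences, and 0 of them passed. Of the 10 other feedback genes and paralogs 8 were kept, with a median of 0.69, and 4 were at least 2-fold higher in induced cells, a size reached by 9.2% of all kept genes. Among these 4, *SPRY1* and *FLRT3* passed the filter only through the induced column. They could be kept only by being higher there, which raises both the median and the count. *ETV1*, the remaining PEA3 group gene, was at 146 FPKM (23.6 to 268) induced, against 34.1 FPKM (2.07 to 66.2) uninduced, a log2 difference of 2.06 beside -0.65 for *ETV4* and -0.12 for *ETV5*. It had the highest value of the PEA3 genes in both columns. *SPRY1* was at 2.43 FPKM (0 to 5.35) induced, against 0.301 FPKM (0 to 1.04) uninduced, far below *SPRY2* and *SPRY4* in level. *FLRT3*, a membrane protein that binds FGF receptors, was at 3.30 FPKM (0 to 7.95) induced, against 0.270 FPKM (0 to 0.801) uninduced, and *LRIG1*, an EGF receptor inhibitor, at 8.27 FPKM (0 to 19.95) induced, against 3.49 FPKM (0 to 8.84) uninduced. The other 4 kept genes were closer in the 2 columns. *PHLDA2* was at 85.7 FPKM induced and 87.3 FPKM uninduced, and *PHLDA3* at 60.1 FPKM induced and 47.4 FPKM uninduced. *ERRFI1*, an EGF receptor inhibitor, was at 34.9 FPKM induced and 37.4 FPKM uninduced, and *SPRED3* at 2.15 FPKM induced and 3.55 FPKM uninduced. *SPRY3* (0.339 FPKM induced, 0.220 FPKM uninduced) and *IL17RD* (0.092 FPKM induced, 0.054 FPKM uninduced), which encodes the FGF antagonist SEF, were under the filter.

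Other MAP kinase phosphatases and immediate early genes also gave 0 calls. Of 9 phosphatases 7 were kept, with a median of 0.27, and 2 were at least 2-fold higher and 1 at least 2-fold lower. Of the higher ones, *DUSP8* passed the filter only through the induced column, at 3.71 FPKM induced and 0.778 FPKM uninduced. *DUSP14* was at 30.1 FPKM (9.62 to 50.6) induced, against 44.5 FPKM (16.8 to 72.2) uninduced, and *DUSP10*, which acts on JNK and p38, at 35.8 FPKM (7.10 to 64.5) induced, against 16 FPKM (3.56 to 28.4) uninduced. *DUSP1*, an immediate early phosphatase of ERK, JNK and p38, was at 12.4 FPKM (2.14 to 22.6) induced, against 29.1 FPKM (10.5 to 47.8) uninduced. Of 14 immediate early genes and their regulators 13 were kept, with a median of -0.06. Among them 1 was at least 2-fold higher and 2 at least 2-fold lower. The highest by the mean of both columns were *ELK3*, an ETS factor, at 25.9 FPKM (7.54 to 44.3) induced and 55.8 FPKM (22.4 to 89.2) uninduced, and *JUNB*, an AP-1 subunit, at 49.1 FPKM (7.95 to 90.2) induced and 31.4 FPKM (0 to 66.6) uninduced. *EGR1*, a zinc finger factor switched on by ERK through ELK1 and SRF, was at 39.5 FPKM (17.7 to 61.3) induced, against 33.6 FPKM (14.4 to 52.8) uninduced. Others of the list differed more by value, in both directions. *JUN* was at 19.5 FPKM (7.27 to 31.8) induced, against 42.3 FPKM (19.6 to 65.0) uninduced. *ATF3* was at 10.1 FPKM (0 to 20.9) induced, against 2.28 FPKM (0 to 5.09) uninduced, and *FOS* at 5.79 FPKM induced and 9.93 FPKM uninduced.

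**Figure D4:**
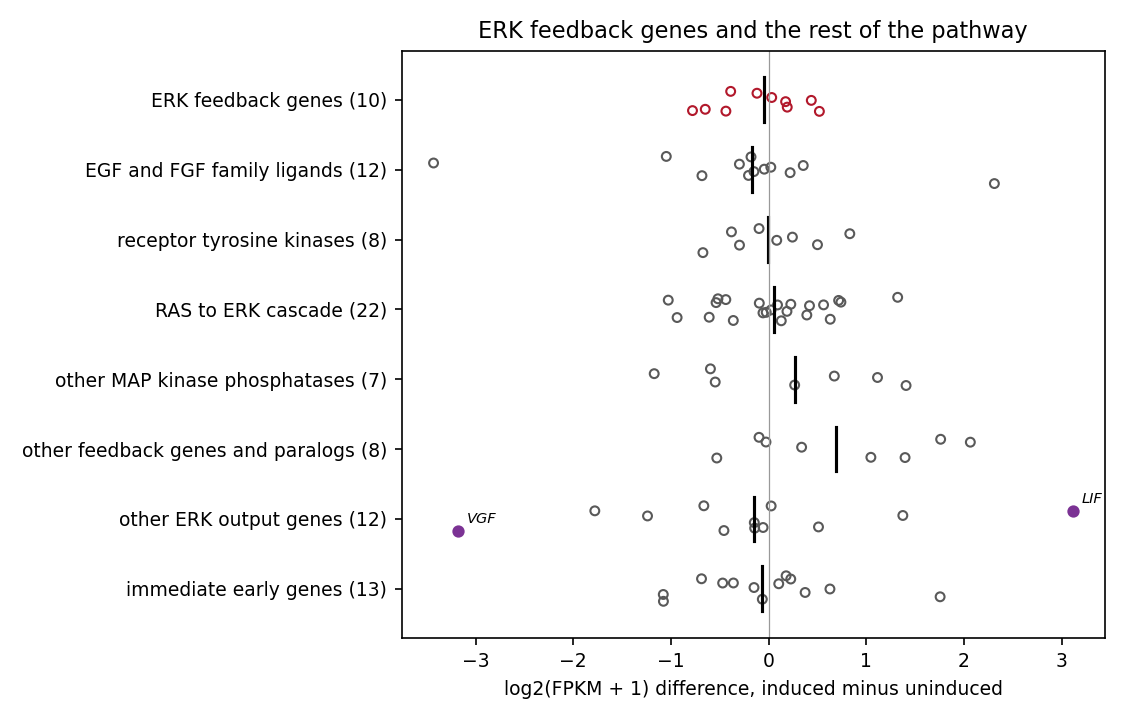
Difference on the log2(FPKM + 1) scale, induced minus uninduced (horizontal axis), for the kept genes of each list, with the number of genes in brackets and the median as a black bar. The ERK feedback genes (red circles) lie between -0.78 and 0.52, and *LIF* (higher) and *VGF* (lower) are the only listed genes whose intervals do not overlap (filled).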

How the data were processed

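RNA from 2 induced and 2 uninduced samples was sequenced after column extraction and a TruSeq preparation that does not keep strand, per the labels' protocols. The submitters' processing notes name TopHat and hg19; the versions, quantifier and filters used are not stated in them. The deposited FPKM values, 1 per gene and group with a lower and an upper bound, are named per the file headers. It is not stated whether the 2 samples of a group were combined in its column. Groups were assigned from column names, and 3 other value columns, which fit no sample here, were not used. Coordinates of gene spans are those of the table, counted from 1.

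Genes at 1 FPKM or more in either column were kept (14319). Differences are log2(FPKM + 1), induced minus uninduced, which understates changes of low genes. A gene was called when its intervals did not overlap; 3 kept genes had malformed bounds and could not be called. The looser rule added the half-widths of both intervals in quadrature. Promoter windows came from the RefSeq promoter table, build GRCh38.p14, searched with Python 3.11.15. The calling rule was also run on values simulated from the deposited interval widths. The outcome is not given here, and such values cannot check whether those widths are right. Depth is unknown in the absence of counts. FPKM summed to 482743 in the induced and 553536 in the uninduced column.

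The members and lists were chosen with earlier results of these data known. Named were all members, all genes of the list of other feedback genes, and of each other list the called genes and the 2 with the highest mean. Named outside this rule after their values were seen were *FGF1*, *FGF2*, *HGF*, *MAPK3*, *PLAUR*, *FOSL1*, *EPHA2*, *DUSP1*, *DUSP8*, *EGR1*, *JUN*, *ATF3*, *FOS*, *KRT10*, *VIM*, *PMEL*, *PTPRC*, *CD14*, the markers at 0 and the genes that share a span with a member. The values of some genes of these lists are not given.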

Additional observations from a re-analysis of the deposited data

How the results depend on the processing

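Over 8 alternatives (3 scalings, a pseudocount of 0.1, no filter, a mean of at least 5 FPKM, summed rows of a symbol, and the interval of the difference), 0 of 10 members were called or differed 2-fold in each. With both columns scaled to the same sum the median of the members moved to 0.15, and that of all kept genes from 0.05 to 0.23. After quantile normalization the order turned, with a median of 0.02 for the members and -0.02 for all kept genes. *ETV5* turned to 0.07 with both columns scaled to the same sum, and *SPRY2* to -0.03 with the median of kept genes set to 0. The other 8 members kept their sign in all 3 scalings. The remaining alternatives could not turn a sign. The filters and the summed rows could not change a member at all, since each has 1 row above both filters. Calls over all kept genes numbered 104 higher and 65 lower, and 180 and 159 with the looser rule. No paired analysis was possible because each group has a single deposited value; the replicate block and fits without a replicate were therefore not run. Depth is unknown, and the widths of the deposited intervals limit these comparisons.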
